A study of Rattus norvegicus with 9 samples.

Results

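The genes described here are a set of 40 that encode proteins of the lysosome or its transcriptional control, the TFEB family. They were chosen by symbol, and 39 of the 40 had a row in the gene table of 36267 features. All 39 passed the filter of at least 1 CPM in at least 3 libraries, as did 16731 features in all. Sgsh, which encodes a heparan sulfate sulfatase, had no row under that symbol and was not analysed here. RNA was measured in 9 kidney samples of rats weighing 180 to 200 g, 3 numbered samples in each of 3 groups. Rats of the icariin group had icariin, a flavonoid glycoside of Epimedium, into the stomach at 100 mg/kg a day over 3 days, and then went through the contrast protocol. CIAKI rats (contrast-induced acute kidney injury) had the contrast protocol alone: the loop diuretic furosemide at 200 mg/kg into the stomach, 6 h of dehydration, and the iodinated X-ray contrast medium iopromide (370 mg I/mL) into the tail vein at 15 mL/kg. Control rats were untreated, so the effects of furosemide, dehydration and iopromide cannot be told apart. The sources used here name no strain, sex or age and no time from contrast to removal of the kidneys. Nor do they say that the numbered samples are separate rats, so p-values measure the spread between these samples, which may be technical; each sample is called a kidney here for short.

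Lysosomes are acidic organelles that break down proteins, glycans and lipids delivered by endocytosis and autophagy. In the kidney they are abundant in the proximal tubule, whose cells take up filtered proteins and digest them. TFEB, TFE3 and MITF are basic helix-loop-helix leucine zipper factors that enter the nucleus when mTORC1 at the lysosomal surface stops phosphorylating them. They bind E-box type sites, among them the CLEAR element, in the promoters of many lysosome genes. Their activity is set mainly by phosphorylation and location, which RNA levels do not measure.

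Libraries held 64380578 to 90398405 counted reads, so that 1 CPM (a gene's reads scaled to the library's total) stood for 64.4 to 90.4 reads, and the lowest value of any member rested on 121 reads (Gpnmb in control 2). The injury marker Havcr1 stood at 1.35 to 2.63 CPM in icariin kidneys, 230 to 742 CPM in CIAKI kidneys and 0.529 to 1.25 CPM in control kidneys. Summed over 14 proximal tubule markers, levels were 24770 to 26460 CPM in icariin, 11300 to 15170 CPM in CIAKI and 24390 to 27990 CPM in control kidneys. Without Lrp2, the highest of them, the sum was 16050 to 16610 CPM in icariin, 7419 to 8979 CPM in CIAKI and 14600 to 16200 CPM in control kidneys. Slc5a12 and Slc27a2 went the other way, with overlap. They averaged 544 and 555 CPM in CIAKI and 440 and 431 CPM in control kidneys. The proximal tubule, the tissue's most abundant cell type, was thus marked in every library, though at a lower summed level in CIAKI. Icariin 2 stood apart with 437 CPM of the mitochondrial gene Mt-co1, where all other libraries held 22770 to 38160 CPM. The globin gene Hbb ranged over 67.5 to 416 CPM in icariin, 663 to 830 CPM in CIAKI and 68.6 to 401 CPM in control kidneys. Neutrophil markers summed to 7.67 to 12.8 CPM in icariin, 5.67 to 8.48 CPM in CIAKI and 8.85 to 11.9 CPM in control kidneys, with Elane at 0. Most of that sum was Ncf1, at a mean of 8.73 CPM in icariin, 3.25 CPM in CIAKI and 7.60 CPM in control kidneys. Without it the other markers summed to 0.651 to 2.27 CPM in icariin and 2.94 to 4.77 CPM in CIAKI kidneys. In control kidneys that sum was 1.55 to 3.604 CPM. S100a8 and Cxcr2 were higher in all CIAKI than in all control kidneys. They averaged 0.582 and 0.725 CPM in CIAKI and 0.161 and 0.174 CPM in control kidneys. Ngp went the other way, at 0 in all CIAKI kidneys and a mean of 0.164 CPM in control kidneys. Mpo averaged 0.301 CPM in CIAKI and 0.806 CPM in control kidneys, with overlap. S100a9 and Csf3r had higher means in CIAKI, also with overlap. S100a8, S100a9, Cxcr2, Ngp and Mpo were below the filter and not tested. In bulk RNA, fewer cells of a type and less RNA per cell cannot be told apart.

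In CIAKI kidneys the lysosome set did not move as a block. Gpnmb rose about 49-fold, Lipa, Ctsl, Sqstm1, Ctsd and Gla rose by 1.64-fold to 2.21-fold in mean CPM, Ctsh and Glb1 fell to 0.454 and 0.486 of their control level, and Tfeb, Lamp1 and Lamp2 did not pass the test. Of 39 genes tested, 11 rose, 8 fell and 20 did not pass. That is 48.7% called, beside 41.3% of all 16731 features, so the share called was near the background. The median log2 fold change was 0.01 over the 39 genes and 0.00 over all features. A change of at least 2-fold was reached by 2 genes that rose (background 3.35%) and by 2 that fell (background 6.53%). The groups did not overlap for 23 of the 39 genes, beside 53.4% of all features. Tests were limma on log2(CPM + 1) with Benjamini-Hochberg adjustment over all 16731 features, called at an adjusted p below 0.05; fold changes on this scale understate the change of low genes.

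**Figure D1:**
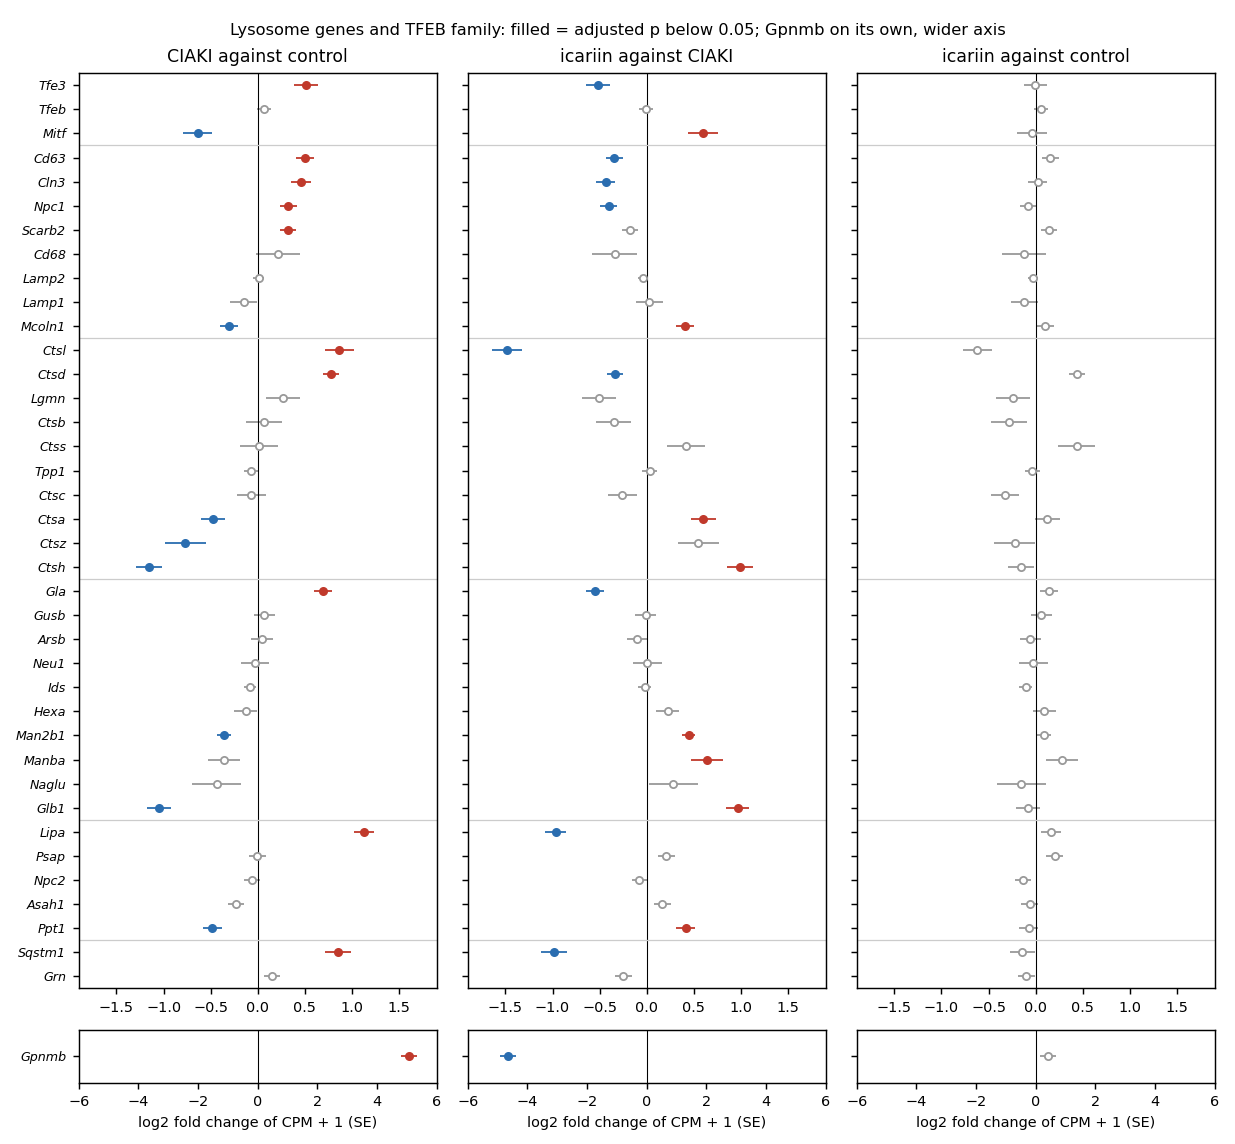
Log2 fold change of CPM + 1 (x axis, bars are SE, n = 3 per group) of the 39 genes, grouped by role from transcription factors at the top to cargo proteins at the bottom, in 3 comparisons. Filled points passed an adjusted p of 0.05, red higher and blue lower. Gpnmb has its own row with a wider axis, at 5.05 in CIAKI against control and -4.65 in icariin against CIAKI, and in icariin against control no point is filled.

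The 3 transcription factors of the set behaved differently from one another. Tfeb, the family's best known regulator of lysosome genes, stood at 30.5, 29.1 and 28.0 CPM in icariin kidneys, at 29.2, 31.1 and 28.1 CPM in CIAKI kidneys and at 28.3, 27.2 and 28.5 CPM in control kidneys. All 9 values lay within a narrow band and the groups overlapped, and CIAKI lay 0.07 above control on the log2 scale (SE 0.07, adjusted p = 0.485 by limma). Tfe3, its closest relative in function, had 21.0, 21.1 and 19.0 CPM in icariin, 33.7, 31.6 and 24.2 CPM in CIAKI and 19.3, 20.1 and 21.9 CPM in control kidneys. Every CIAKI value lay above all control and icariin values, and Tfe3 rose by 0.51 on the log2 scale (SE 0.12, adjusted p = 0.0101). Mitf, known as the master regulator of pigment cells and also active in osteoclasts, had 38.3, 34.4 and 30.6 CPM in icariin, 22.1, 18.9 and 26.6 CPM in CIAKI and 30.2, 42.9 and 34.1 CPM in control kidneys. It was lowest in the CIAKI kidneys without overlap and fell by 0.64 (SE 0.16, adjusted p = 0.0106). Of the pigment cell markers Tyr and Tyrp1 no read was counted in any library, and the 7 pigment cell and osteoclast markers in the table summed to 10.3 to 10.9 CPM in icariin, 8.43 to 9.86 CPM in CIAKI and 10.4 to 15.7 CPM in control kidneys. Without Calcr, the highest of them, the sum was 3.48 to 3.72 CPM in icariin, 3.61 to 5.05 CPM in CIAKI and 2.95 to 3.47 CPM in control kidneys, so that its direction in CIAKI turned. Tfec, a further gene of the family, is outside the set and was counted with the mTORC1 and TFEB control genes below. It averaged 16.6 CPM in icariin, 24.9 CPM in CIAKI and 21.3 CPM in control kidneys, without overlap between any groups. By limma it was lower in icariin than in CIAKI kidneys (-0.56, adjusted p = 0.0016). CIAKI against control (0.21) and icariin against control (-0.35) did not pass (adjusted p = 0.0892 and 0.169). The plot of levels by kidney shows the 3 factors of the set side by side.

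**Figure D2:**
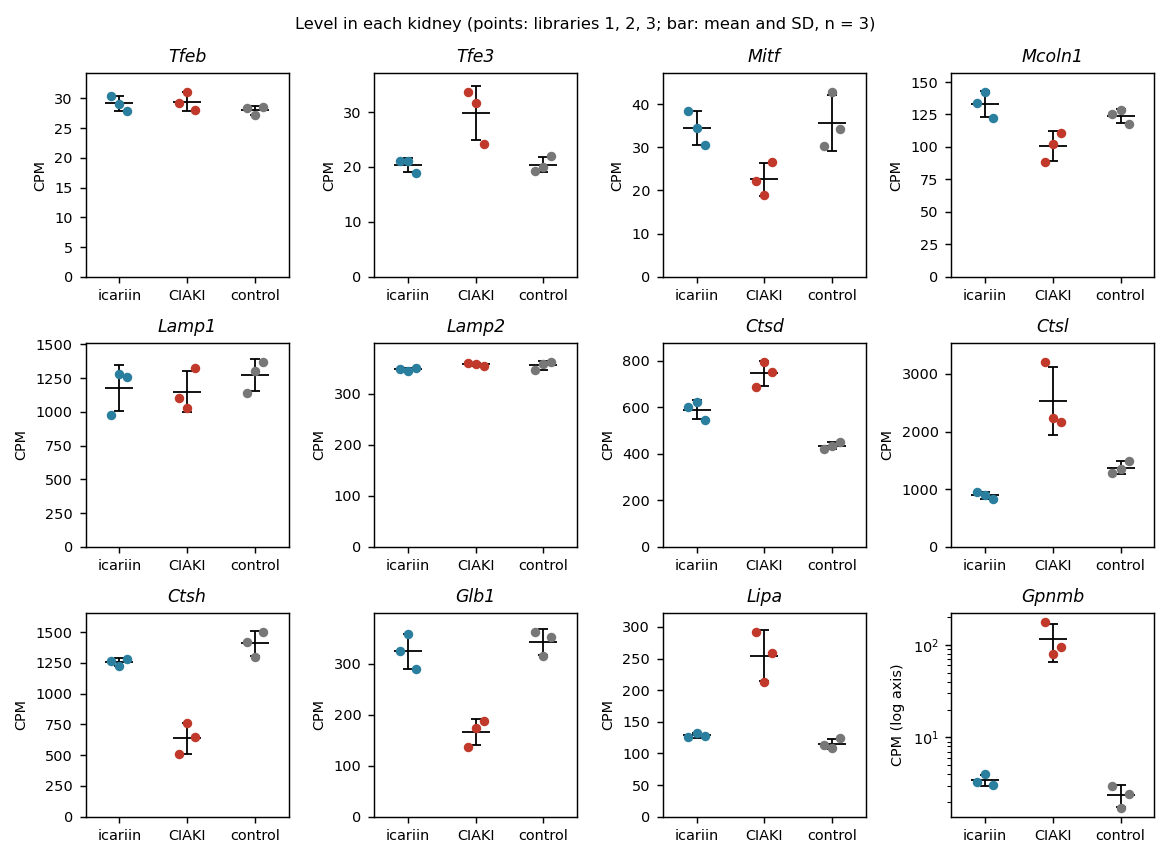
CPM (y axis) of 12 genes in each kidney, with the mean and SD of 3 libraries per group; all y axes start at 0 except that of Gpnmb, which is a log axis. Tfeb, Lamp1 and Lamp2 overlap between CIAKI and control, while in Tfe3, Ctsd, Ctsl, Lipa and Gpnmb the 3 CIAKI points lie above all other points and in Mitf, Mcoln1, Ctsh and Glb1 below them.

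Promoters are shown because TFEB family factors are known to bind this sequence class and because the genes that carry it moved in different directions. RefSeq promoter windows (GRCr8, 250 bases before to 50 bases after the annotated start) were found for 34 of the 40 genes. The core of the CLEAR element, TCACGTGA, which is its own reverse complement, lay in 4 of 34 windows (11.8%), beside 0.777% of all 33469 promoter windows. The shorter E-box CACGTG, which lies inside every TCACGTGA, was in 7 of 34 (20.6%), beside 6.42% of all. A match is a description of these letters, not of binding. In CIAKI kidneys, 2 of the 4 genes with TCACGTGA rose (Ctsd and Cln3), 1 fell (Mcoln1) and 1 did not pass (Lamp1). Of all features 20.8% were higher and 20.5% lower. Glb1, which also fell, has CACGTG alone. Cd63, with CACGTG, rose as well, and Sgsh holds it too. The windows of Ctsd, Cln3, Mcoln1, Glb1 and Lamp1 are given 5′ to 3′ on the strand of the gene, with each match to TCACGTGA or CACGTG in capitals.
Ctsd, chr1:206968772-206969071, minus strand: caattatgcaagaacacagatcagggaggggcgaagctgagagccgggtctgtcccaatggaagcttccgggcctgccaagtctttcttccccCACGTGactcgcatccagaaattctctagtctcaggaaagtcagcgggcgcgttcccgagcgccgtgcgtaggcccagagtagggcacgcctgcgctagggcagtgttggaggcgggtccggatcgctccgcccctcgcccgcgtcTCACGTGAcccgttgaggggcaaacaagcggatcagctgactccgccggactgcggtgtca
Cln3, chr1:190597880-190598179, minus strand: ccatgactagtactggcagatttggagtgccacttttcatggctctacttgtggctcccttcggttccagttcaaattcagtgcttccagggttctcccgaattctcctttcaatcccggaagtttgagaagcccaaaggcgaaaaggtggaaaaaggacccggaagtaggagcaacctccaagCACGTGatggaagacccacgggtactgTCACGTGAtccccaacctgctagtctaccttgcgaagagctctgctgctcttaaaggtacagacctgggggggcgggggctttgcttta
Mcoln1, chr12:6358008-6358307, plus strand: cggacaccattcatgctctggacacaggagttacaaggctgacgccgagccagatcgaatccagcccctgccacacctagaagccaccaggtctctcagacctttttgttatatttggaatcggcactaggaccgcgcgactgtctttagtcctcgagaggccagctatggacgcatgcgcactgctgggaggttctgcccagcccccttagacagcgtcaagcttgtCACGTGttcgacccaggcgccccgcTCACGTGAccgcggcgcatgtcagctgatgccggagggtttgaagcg
Glb1, chr8:122963468-122963767, plus strand: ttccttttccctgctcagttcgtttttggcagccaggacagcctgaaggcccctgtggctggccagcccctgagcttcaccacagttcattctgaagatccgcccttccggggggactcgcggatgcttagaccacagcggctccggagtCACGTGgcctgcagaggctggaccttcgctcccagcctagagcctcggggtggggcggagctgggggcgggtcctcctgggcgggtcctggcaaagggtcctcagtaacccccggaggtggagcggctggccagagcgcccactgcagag
Lamp1, chr16:83075014-83075313, minus strand: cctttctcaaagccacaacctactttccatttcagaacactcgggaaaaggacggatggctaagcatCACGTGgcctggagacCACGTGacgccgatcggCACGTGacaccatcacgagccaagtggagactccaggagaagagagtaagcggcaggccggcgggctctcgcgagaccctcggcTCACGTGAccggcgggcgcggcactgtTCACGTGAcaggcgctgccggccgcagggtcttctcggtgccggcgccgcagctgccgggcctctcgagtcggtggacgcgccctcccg

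In the Ctsd window TCACGTGA begins 11 bases before the annotated start, in Cln3 39 bases before it, and in Mcoln1 3 bases after it. Lamp1 holds it at 2 places, 66 and 39 bases before the start, together with CACGTG at 3 more places. Lamp1, with the most copies of these windows, did not pass the test, and its CIAKI mean was 0.904 of that in control kidneys.

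Of 8 genes for lysosomal membrane proteins and channels, 4 rose, 1 fell and 3 did not pass in CIAKI. That is 62.5% called, beside 41.3% of all features (20.8% higher and 20.5% lower). Lamp1, a major glycoprotein of the lysosomal membrane, had 980, 1283 and 1260 CPM in icariin, 1100, 1028 and 1322 CPM in CIAKI and 1139, 1305 and 1371 CPM in control kidneys. Lamp2, its partner and the receptor of chaperone-mediated autophagy, had 347, 345 and 351 CPM in icariin, 359, 358 and 354 CPM in CIAKI and 345, 358 and 362 CPM in control kidneys. Neither passed the test in any of the 3 comparisons, and the Lamp2 log2 fold change in CIAKI was 0.01 with an SE of 0.06. Mcoln1, which encodes the lysosomal calcium channel TRPML1, had 134, 143 and 123 CPM in icariin, 88.1, 103 and 111 CPM in CIAKI and 125, 129 and 118 CPM in control kidneys. The channel gene was lowest in all 3 CIAKI kidneys and fell by 0.30 (SE 0.09, adjusted p = 0.0293). Its call ended without control 1, control 2, CIAKI 1 or CIAKI 2 (adjusted p = 0.0784, 0.0889, 0.0788 and 0.0507).

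The membrane genes that rose were Cd63, a tetraspanin of late endosomes (0.50, adjusted p = 0.0027), and Cln3, whose loss causes juvenile Batten disease (0.46, adjusted p = 0.00672). They were joined by Scarb2, which encodes the sorting receptor LIMP-2 of glucocerebrosidase (0.32, adjusted p = 0.0144), and Npc1, the exporter of lysosomal cholesterol (0.32, adjusted p = 0.0175). The Scarb2 call ended without control 1 (0.052) and that of Npc1 without control 1 or control 3 (0.0508 and 0.0552). Cd68, a lysosomal membrane protein often used as a macrophage marker, had 3.89, 4.08 and 2.72 CPM in icariin, 7.01, 4.58 and 3.20 CPM in CIAKI and 4.40, 3.46 and 3.98 CPM in control kidneys. Its groups overlapped and it did not pass (0.22, SE 0.24, adjusted p = 0.498). Of 14 macrophage markers tested, 7 fell and 1 (Mrc1) rose in CIAKI, beside 20.5% lower and 20.8% higher of all features. Cd163, below the filter and not tested, was higher in all CIAKI than in all control kidneys. It averaged 0.610 CPM in icariin, 1.59 CPM in CIAKI and 0.343 CPM in control kidneys. The summed level of all 16 listed was 137 to 192 CPM in icariin, 88.8 to 145 CPM in CIAKI and 174 to 186 CPM in control kidneys, with Marco at 0 in icariin and CIAKI kidneys.

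**Figure D3:**
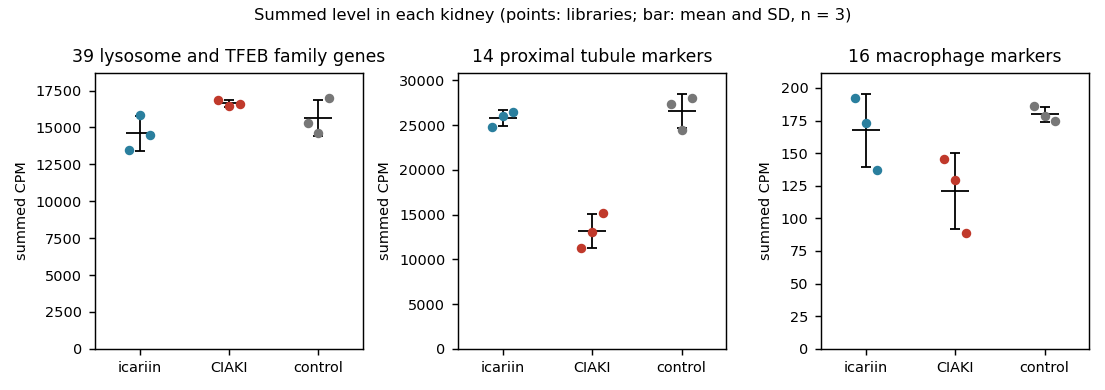
Summed CPM (y axis, from 0) of the 39 lysosome and TFEB family genes, of 14 proximal tubule markers and of 16 macrophage markers in each kidney, with the mean and SD of 3 libraries per group. The lysosome sum overlaps between CIAKI and control, whereas the proximal tubule and macrophage sums are lower in the 3 CIAKI kidneys than in the 3 control kidneys.

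Peptidases moved in both directions, 2 higher, 3 lower and 5 not passing of 10. That is 50% called, beside 41.3% of all features (20.8% higher and 20.5% lower). Ctsl, a cysteine protease, had 943, 899 and 834 CPM in icariin, 3213, 2230 and 2159 CPM in CIAKI and 1273, 1359 and 1487 CPM in control kidneys. All CIAKI values were above all others, higher than control by 0.86 on the log2 scale (SE 0.15, adjusted p = 0.00235), and the icariin values were the lowest of the 3 groups. Ctsd, the main aspartic protease of lysosomes, had 603, 623 and 545 CPM in icariin, 689, 796 and 751 CPM in CIAKI and 420, 434 and 452 CPM in control kidneys. Here the groups formed 3 separate steps, CIAKI highest and control lowest, and the rise in CIAKI was 0.77 (SE 0.08, adjusted p = 0.000211). Ctsh, a cysteine protease with aminopeptidase activity, had 1268, 1222 and 1282 CPM in icariin, 510, 762 and 646 CPM in CIAKI and 1424, 1297 and 1504 CPM in control kidneys. It moved opposite to Ctsl and Ctsd and fell by 1.15 (SE 0.14, adjusted p = 0.000339).

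Ctsa, the carboxypeptidase that protects beta-galactosidase and neuraminidase in a complex, fell by 0.48 (adjusted p = 0.0175), a call that ended without control 1 or control 3 (0.0661 and 0.0554). Ctsz, a further carboxypeptidase, averaged 6.14 ± 1.66 CPM in CIAKI and 10.98 ± 0.934 CPM in control kidneys (SD, n = 3 each) and fell by 0.77 (adjusted p = 0.0198). Without control 1, control 2, CIAKI 1 or CIAKI 3 its adjusted p was 0.0589 to 0.0615. The others did not pass. Ctsb, a cysteine protease, averaged 3002 ± 103 CPM in CIAKI and 2918 ± 703 CPM in control kidneys, where control 3 stood at 3723 CPM above 2609 and 2421 CPM. Lgmn, the asparaginyl endopeptidase legumain, was higher in all 3 CIAKI kidneys (1826 to 1867 CPM) than in controls (1452 to 1640 CPM) but had an adjusted p of 0.262. Tpp1, Ctsc and Ctss, a tripeptidyl peptidase and 2 cysteine cathepsins, lay at -0.07, -0.07 and 0.01.

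Among hydrolases of glycans and sulfate esters, 1 rose, 2 fell and 7 did not pass of 10. That is 30% called, beside 41.3% of all features (20.8% higher and 20.5% lower). Glb1, lysosomal beta-galactosidase, had 325, 358 and 290 CPM in icariin, 137, 175 and 187 CPM in CIAKI and 363, 315 and 352 CPM in control kidneys. All 3 CIAKI values lay below all others, a fall of 1.05 (SE 0.13, adjusted p = 0.000337). Gla, the alpha-galactosidase that is deficient in Fabry disease, went the other way, at 32.1, 30.5 and 26.8 CPM in icariin, 43.7, 44.4 and 43.9 CPM in CIAKI and 26.6, 29.5 and 24.6 CPM in control kidneys, a rise of 0.69 (SE 0.09, adjusted p = 0.000564). Both enzymes remove a galactose from glycans or glycolipids. Man2b1, an alpha-mannosidase, fell by 0.36 (adjusted p = 0.00426). Hexa, Gusb, Naglu, Neu1, Manba, Arsb and Ids, which take hexosamine, glucuronic acid, N-acetylglucosamine, sialic acid, mannose and sulfate groups off their substrates, lay between -0.43 and 0.07 and did not pass. Hexa was called without CIAKI 3 (-0.27, adjusted p = 0.0376).

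Of 5 genes of lipid breakdown and transport, 1 rose, 1 fell and 3 did not pass. That is 40% called, beside 41.3% of all features (20.8% higher and 20.5% lower). Lipa, the acid lipase that frees cholesterol and fatty acids from lipoproteins and lipid droplets, had 126, 133 and 127 CPM in icariin, 293, 212 and 259 CPM in CIAKI and 114, 108 and 124 CPM in control kidneys. Each CIAKI value was above all the others, a rise of 1.13 (SE 0.11, adjusted p = 0.000127). Ppt1, a palmitoyl-protein thioesterase, fell by 0.49 (adjusted p = 0.00491). Asah1, acid ceramidase, lay at -0.23 with no overlap and an adjusted p of 0.0643, and was called under 4 alternatives (adjusted p = 0.0178 to 0.0462): upper-quartile scaling, quantile normalization, DESeq2 and leaving out control 3. Psap, the precursor of the saposins that present lipids to hydrolases, and Npc2, the soluble partner of NPC1, lay at -0.01 and -0.06.

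Gpnmb showed the widest range of the set. It encodes a transmembrane glycoprotein of melanosomes and lysosomes that is known as a MITF target in pigment cells and is induced in injured kidney. It had 3.29, 4.01 and 3.04 CPM in icariin, 175, 80.05 and 94.8 CPM in CIAKI and 3.001, 1.74 and 2.41 CPM in control kidneys. The lowest CIAKI value was far above the highest of the other 6, and Gpnmb rose by 5.05 on the log2 scale (SE 0.27, adjusted p = 1.39e-05). Mitf fell in the same kidneys, as given above. The Gpnmb window, chosen after its values were seen, holds the M-box TCACATGA (in capitals below). This motif was not among those planned. The M-box was searched on both strands and cannot overlap CACGTG in the same letters. It was found in 5 of 34 windows (14.7%) of the set, that of Gpnmb included, and in 1.16% of all promoter windows. In the Gpnmb window it begins 23 bases before the annotated start.
Gpnmb, chr4:79340878-79341177, plus strand: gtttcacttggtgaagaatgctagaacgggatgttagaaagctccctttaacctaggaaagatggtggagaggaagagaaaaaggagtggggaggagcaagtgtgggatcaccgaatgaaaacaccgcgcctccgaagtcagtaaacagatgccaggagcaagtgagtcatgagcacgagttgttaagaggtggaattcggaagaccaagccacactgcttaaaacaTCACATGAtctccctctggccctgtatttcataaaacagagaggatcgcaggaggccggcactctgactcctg

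Of the genes with the M-box, Gpnmb and Cd63 rose, and Grn, Tpp1 and Ctss did not pass. Sqstm1, which encodes the autophagy cargo receptor p62 and is a cytosolic rather than a lysosomal protein, had 365, 371 and 332 CPM in icariin, 879, 697 and 574 CPM in CIAKI and 379, 387 and 411 CPM in control kidneys. All CIAKI values were the highest, a rise of 0.85 (SE 0.14, adjusted p = 0.0014). Grn, the precursor of the granulins, was higher in all 3 CIAKI kidneys (269 to 281 CPM) than in controls (235 to 264 CPM), with an adjusted p of 0.208.

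Spread within the CIAKI group was wider than in the others, with a median coefficient of variation of 7.51% in icariin, 11.6% in CIAKI and 6.62% in control kidneys, beside 10.8%, 14.8% and 9.48% over all features tested. CIAKI 1 held the highest CIAKI value of 6 of the 11 genes that rose and the lowest of 5 of the 8 that fell. The same kidney had the highest Havcr1 (742 CPM) and the lowest proximal tubule sum (11300 CPM). Without it Gpnmb rose by 4.72, Ctsl by 0.68, Sqstm1 by 0.69 and Ctsh stood at -1.0009, all still called (adjusted p up to 0.00209). Summed over the 39 genes, the set took 13470 to 15870 CPM in icariin, 16430 to 16880 CPM in CIAKI and 14660 to 16980 CPM in control kidneys.

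Other genes of the organelle gave a mixed picture too. Over 6 lists with 131 tested genes, 32 rose and 31 fell in CIAKI, 48.1% called beside the background of 41.3%. With upper-quartile scaling 28 rose and 37 fell, and of all features 2945 rose and 4093 fell, beside 3479 and 3424 without it. The lists were drawn from textbook roles with earlier results of these data known. Of 29 further hydrolases 6 rose and 15 fell, with a median of -0.29. The falls were led by Galns, a keratan sulfate sulfatase (-1.04), Siae, a sialic acid esterase (-0.77), Gm2a, the activator protein of ganglioside breakdown (-0.76), and Aga, which cleaves asparagine from glycans (-0.70). The rises were led by Hyal2, a hyaluronidase (0.73), Acp5, tartrate-resistant acid phosphatase (0.49), Dnase2 (0.49) and the phospholipase gene Pla2g15 (0.48). Background calls were 20.5% lower and 20.8% higher.

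**Figure D4:**
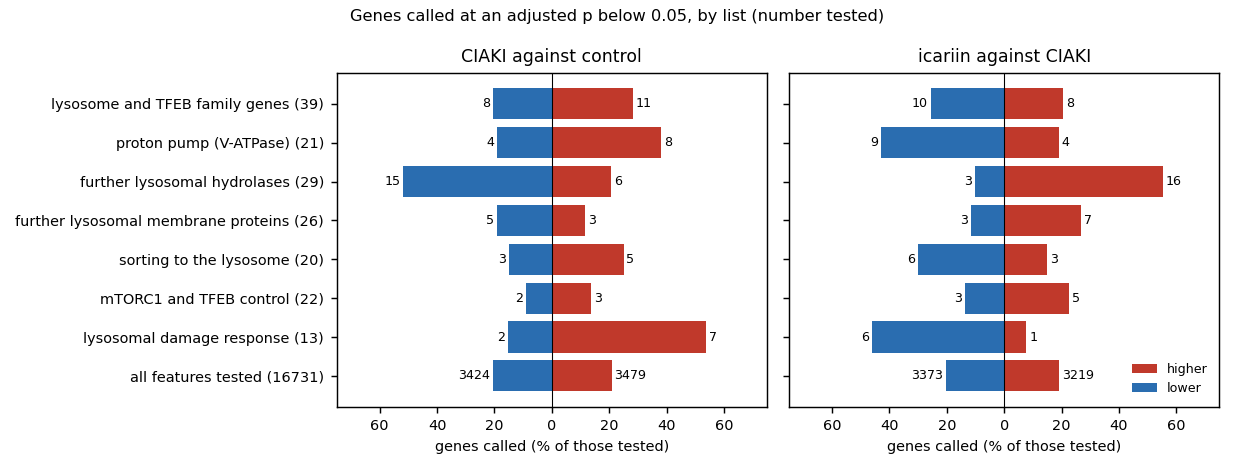
Genes called at an adjusted p below 0.05 as a percentage of those tested (x axis, higher to the right in red, lower to the left in blue, counts at the bar ends) for the 39 lysosome and TFEB family genes, 6 further lists and all features, in CIAKI against control and in icariin against CIAKI. Of 29 further hydrolases 15 were lower in CIAKI and 16 higher in icariin against CIAKI. Of 13 lysosomal damage genes 7 were higher and 6 lower in the same comparisons. Both of these counts hold Fbxo2, which passed the filter only through the CIAKI kidneys.

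The proton pump that acidifies the organelle (V-ATPase) had 8 genes higher and 4 lower of 21, 57.1% called beside the background of 41.3%. With upper-quartile scaling 7 were higher and 5 lower. The rises were led by the membrane sector subunits Atp6v0e1 (0.88), Atp6v0b (0.63) and Atp6v0a1 (0.54) and the accessory gene Atp6ap1 (0.51). Atp6v1b2 (0.49), Atp6v1f (0.44) and Atp6v1e1 (0.335), which are not of that sector, and Atp6v0c (0.24) rose as well. The falls were Atp6v1c2 (-1.31), Atp6v1b1 (-0.69), Atp6v0a4 (-0.52) and Atp6v0d1 (-0.46), of which Atp6v1b1 and Atp6v0a4 encode isoforms of acid-secreting intercalated cells and are mutated in distal renal tubular acidosis. Other isoform genes of the list, Atp6v0d2 (0.06) and Atp6v1g3 (-0.34), did not pass (adjusted p = 0.634 and 0.322). The Atp6v0a4 call ended without control 3 (adjusted p = 0.0552). Of 26 further membrane proteins 3 rose and 5 fell, 30.8% called beside the same background. The counts were 3 and 6 with TMM scaling, 3 and 7 with upper-quartile scaling, and 4 and 7 with quantile normalization. Tmem106b (0.48), the cobalamin exporter gene Lmbrd1 (0.47) and Sidt2 (0.39) rose, while the peptide and histidine transporter gene Slc15a3 (-1.21), Abca2 (-1.13), the peptide transporter gene Abcb9 (-1.12) and Laptm5 (-0.62), a gene of blood cells, fell. The Laptm5 call ended with no filter on low values (0.0639) and without control 1, 2 or 3, CIAKI 3 or icariin 1 (0.103, 0.0793, 0.0785, 0.0839 and 0.053).

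Of 20 sorting genes 5 rose and 3 fell, 40% called beside the background of 41.3%. With upper-quartile scaling or quantile normalization the counts were 3 and 3. Gga3 (0.48) and Gga2 (-0.63), adaptors that carry hydrolases from the Golgi, moved apart, Gnptab (0.40), which makes the mannose 6-phosphate tag, and the tethering gene Vps16 (0.37) rose, and its partner Vps33a fell (-0.42). Arl8a (0.34), a GTPase of lysosome transport, and Sort1 (-0.49), the receptor sortilin, were called too, but not without any 1 of control 1, 2 or 3 (adjusted p = 0.0526 to 0.135 for both), nor without CIAKI 1 (0.106 and 0.126). Both calls ended with no filter on low values (0.0566 and 0.071), and that of Arl8a with upper-quartile scaling, quantile normalization or 2 groups only (0.053 to 0.071). The Arl8a call also ended without CIAKI 2, icariin 1 or icariin 2 (0.0811, 0.0508 and 0.0538) and that of Sort1 without CIAKI 3 or icariin 2 (0.084 and 0.0562). Of 22 genes listed for mTORC1 and TFEB control, among them the factor gene Tfec, 3 rose and 2 fell. That is 22.7% called beside the background of 41.3%. With upper-quartile scaling 3 rose and 4 fell, and with quantile normalization 3 and 3. Fnip2 (0.57), a partner of folliculin, and the GTPase genes Rraga (0.42) and Rheb (0.32) rose. The Ragulator subunit gene Lamtor5 (-1.03) and the coactivator gene Ppargc1a (-0.40) fell. The Rheb call ended without control 1, control 3 or CIAKI 1 (0.0823, 0.0602 and 0.0597).

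Genes of the response to damaged lysosomes, listed together with the cathepsin inhibitor genes Cstb and Cst3, rose in 7 and fell in 2 of 13 cases. That is 69.2% called, beside 41.3% of all features, of which 20.8% were higher and 20.5% lower. Lgals3, galectin-3, which gathers on ruptured lysosomes, averaged 22.2 CPM in CIAKI and 5.80 CPM in control kidneys and rose by 1.77 (adjusted p = 0.000378). Cstb, a cytosolic inhibitor of cathepsins, rose by 0.73 (adjusted p = 0.000705). Trim16 (0.78) and Fbxo2 (0.67), a ubiquitin ligase and a glycoprotein-binding ligase subunit, passed more narrowly (adjusted p = 0.0432 and 0.0208). Trim16 values overlapped, with 17.5 CPM in CIAKI 3 and 17.6 CPM in control 2. Fbxo2 averaged 0.881 CPM in icariin, 1.82 CPM in CIAKI and 0.795 CPM in control kidneys. It passed the filter only through the CIAKI kidneys, where it was high. With the filter at 5 CPM, which leaves Fbxo2 out, 6 genes of the list rose and 2 fell. The falls were Lgals8 (-0.37), galectin-8, and Cst3 (-0.35), the secreted inhibitor cystatin C. Cst3 values overlapped, with 121.5 CPM in CIAKI 1 and 119.8 CPM in control 2. The Trim16 call ended with any 1 of 7 libraries left out, control 1 and 3, CIAKI 1 and 2 and icariin 1, 2 and 3 (adjusted p = 0.0558 to 0.129), and with no filter, upper-quartile scaling or 2 groups only (0.0571 to 0.0768). The Fbxo2 call ended without control 2, control 3 or CIAKI 1 (0.0734, 0.0702 and 0.0677), and that of Cst3 with no filter (0.0633) and without control 1, control 3, CIAKI 2, CIAKI 3 or icariin 1 (0.116, 0.109, 0.106, 0.107 and 0.0513).

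Icariin kidneys were then set against CIAKI kidneys. Gpnmb, Ctsl, Sqstm1 and Lipa were lower with icariin and Ctsh, Glb1, Manba and Ctsa higher. Of 39 genes 8 were higher, 10 lower and 21 did not pass, 46.2% called beside a background of 39.4%. The median log2 fold change was -0.02 over these genes and 0.02 over all features, and 24 of the 39 did not overlap between the groups, beside 50.7% of all features. On the scale of log2(CPM + 1) no gene of the set was higher by 2-fold or more, beside 5.39% of all features. On the same scale 2 (Gpnmb and Ctsl) were lower by as much, beside 3.04%. In mean CPM Sqstm1 also stood at 0.497 of its CIAKI level. The same CIAKI libraries enter this comparison and the first, so the values are given side by side without a measure of their likeness.

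Gpnmb averaged 3.45 ± 0.50 CPM in icariin and 117 ± 51.3 CPM in CIAKI kidneys (SD, n = 3 each) and lay at -4.65 on the log2 scale (SE 0.27, adjusted p = 1.55e-05). Ctsl lay at -1.48 (SE 0.15, adjusted p = 0.000209), beside its 0.86 in CIAKI against control. Sqstm1 lay at -0.99 (adjusted p = 0.000768), Lipa at -0.97 (adjusted p = 0.000316), Gla at -0.55 (adjusted p = 0.00193) and Tfe3 at -0.52 (adjusted p = 0.0102). Cln3, Npc1, Cd63 and Ctsd, the remaining genes that were lower, lay at -0.44, -0.40, -0.35 and -0.34. The Cd63 call ended without icariin 1 (0.0584). Scarb2, which had risen in CIAKI, lay at -0.17 and did not pass.

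Higher with icariin were Ctsh at 0.99 (SE 0.14, adjusted p = 0.000797) and Glb1 at 0.96 (SE 0.13, adjusted p = 0.000573). Manba, lysosomal beta-mannosidase, had 145, 137 and 136 CPM in icariin, 64.0, 102 and 107 CPM in CIAKI and 113, 125 and 107 CPM in control kidneys. It was higher in icariin than in CIAKI kidneys (0.64, adjusted p = 0.0156) while its CIAKI and control values overlapped. Ctsa lay at 0.60 (adjusted p = 0.00675), Mitf at 0.60 (adjusted p = 0.0154), Man2b1 at 0.44, Ppt1 at 0.41 and Mcoln1 at 0.40 (adjusted p = 0.00901). The Mitf call ended without icariin 1 (0.0549). Lgmn and Grn stood just outside the threshold (adjusted p = 0.0509 and 0.0521) with values lower in all 3 icariin kidneys. In Lgmn the icariin kidneys were far apart, at 968, 1729 and 1312 CPM, and without icariin 2 it was called (0.00827), as was Grn (0.0424). Each was also called with the filter at 5 CPM and with DESeq2 (adjusted p = 0.00919 to 0.0477), Lgmn with the offset of 0.1 and quantile normalization (0.0493 and 0.0468), and Grn with TMM scaling and edgeR (0.0309 and 0.0405). Without CIAKI 1 Ctsc (-0.44) and Ctss (0.61) were called (0.017 and 0.0367), and without CIAKI 3 Hexa (0.36, adjusted p = 0.0128). Ctsz was called without CIAKI 2 or icariin 3 (0.0301 and 0.0298) and with upper-quartile scaling or DESeq2 (0.0464 and 0.044), as was Psap with these 2 (0.0363 and 0.0484).

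Of the further lists, 16 of 29 hydrolases were higher and 3 lower in icariin than in CIAKI kidneys, beside a background of 19.2% higher and 20.2% lower. Galns lay at 0.66, Siae at 0.76, Gm2a at 0.67 and Aga at 0.63. The V-ATPase had 4 genes higher and 9 lower of 21, with Atp6v0e1 at -0.69 and Atp6v1c2 at 1.22. Its counts were 4 and 7 with upper-quartile scaling and 4 and 8 with quantile normalization. Genes of lysosomal damage had 1 higher (2 with TMM or upper-quartile scaling) and 6 lower of 13, with Lgals3 at -1.33 and Cstb at -0.86. The 6 include Fbxo2, and with the filter at 5 CPM, which leaves Fbxo2 out, 5 were lower. Further membrane proteins had 7 higher and 3 lower of 26, and genes of mTORC1 and TFEB control 5 and 3 of 22. Sorting genes had 3 higher and 6 lower of 20 (4 and 5 with upper-quartile scaling). Over all 131 genes of these lists 36 were higher and 30 lower, 50.4% called beside the background of 39.4%. Of 14 proximal tubule markers 11 were higher and 0 lower in the same comparison. In CIAKI against control 9 of them were lower and 0 higher, beside a background of 20.5% lower and 20.8% higher. The part of cell composition in the lysosome genes was not tested.

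In icariin against control kidneys limma called 0 of the 39 genes, beside 0.628% of all features. At an unadjusted p below 0.05 there were 2 (Ctsd and Ctsl), beside 10.2% of all features. With edgeR on recovered reads 0 were called, and with DESeq2 the same 2. Ctsl was lower in all 3 icariin kidneys, averaging 892 ± 55.2 CPM in icariin and 1373 ± 108 CPM in control kidneys (SD, n = 3 each), at -0.62 (SE 0.15, adjusted p = 0.152). Ctsd was higher in all 3, averaging 590 ± 40.4 CPM in icariin and 435 ± 16.2 CPM in control kidneys, at 0.44 (SE 0.08, adjusted p = 0.0656). Both were called without CIAKI 1, whose library enters only the shared estimate of the spread (adjusted p = 0.0283 for Ctsl and 0.0473 for Ctsd). The groups did not overlap for 12 of 39 genes, beside 19.3% of all features. Of the further lists 1 gene passed, Castor1, the arginine sensor of mTORC1, at 0.68 (adjusted p = 0.0125), a call that ended without icariin 2 (0.0541) or control 1, 2 or 3 (0.0616, 0.0696 and 0.0501). The proximal tubule marker Slc27a2 was called too, at 0.83 (adjusted p = 0.0308 by limma), and was not followed through the alternatives.

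Levels per length, which can be compared between genes, were available for the 9 members in the authors' deposited table of selected mRNAs, in FPKM (fragments scaled to gene length and library size) and for icariin and CIAKI kidneys only. In that table Ctsl averaged 427 ± 22.1 FPKM in icariin and 1182 ± 248 FPKM in CIAKI kidneys (SD, n = 3 each), Ctsh 650 ± 21.9 FPKM in icariin and 318 ± 67.7 FPKM in CIAKI kidneys, and Ctsa 613 ± 51.0 FPKM in icariin and 398 ± 62.6 FPKM in CIAKI kidneys. By mean FPKM Ctsh was the highest of the 9 in icariin kidneys, with values that overlapped those of Ctsa, and Ctsl was the highest in CIAKI kidneys without overlap. Sqstm1 averaged 143 ± 6.51 FPKM in icariin and 284 ± 52.3 FPKM in CIAKI kidneys. Gpnmb averaged 1.17 ± 0.155 FPKM in icariin and 38.7 ± 16.1 FPKM in CIAKI kidneys, which placed it below Mitf (6.25 ± 0.748 FPKM) in icariin and near Glb1 (45.4 ± 7.95 FPKM) in CIAKI kidneys, where Mitf averaged 4.07 ± 0.694 FPKM. Glb1, Lipa and Manba averaged 90.3, 31.5 and 29.7 FPKM in icariin and 45.4, 60.9 and 19.1 FPKM in CIAKI kidneys.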

How the data were processed

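RNA of 9 rat kidney samples was taken with Trizol and sequenced from TruSeq libraries, per the labels' protocols. The submitters' processing notes name Bowtie 0.12.2 and mm8, a mouse build, although the table lists Ensembl gene IDs of rat. The sources used here do not settle which reference served, how reads were counted, or how strand and shared reads were handled, so members with near copies or overlapping genes are uncertain.

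The authors deposited CPM for all 36267 features. Whole reads could be recovered from the CPM steps (100% of values above 0 within 0.1 of a whole number) and equalled all 23850 read counts deposited by the authors for selected mRNAs. The FPKM values are the authors' own, per the file headers.

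Since the table holds CPM, limma 3.58.1 (R 4.3.3) with an intensity trend was run on log2(CPM + 1) of all 9 libraries with group as the factor, after a filter of 1 CPM or more in 3 or more libraries. Tests were two-sided with Benjamini-Hochberg adjustment at 0.05, and the step was tested on simulated data. Alternatives were other offsets, filters and scalings, fits of 2 groups only, a replicate block, edgeR 4.0.16 and DESeq2 1.42.0 on recovered reads, and each library left out in turn.

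The genes, the further lists and the tests were chosen with earlier results of these data known. Genes named with all values were the 3 factors, Mcoln1, Lamp1, Lamp2, Sqstm1 and Cd68, members changed at least 2-fold in CIAKI and members called in icariin against control. Ctsl, Ctsd, Gla and Manba were added after their values were seen. From each further list up to 4 called genes per direction were named, and further V-ATPase genes and Tfec were added after their values were seen.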

Additional observations from a re-analysis of the deposited data

How the results depend on the processing

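Of the 19 lysosome and TFEB family genes called in CIAKI against control, 14 were called under each of 20 alternatives and 5 lost their call under at least 1, and of the 18 called in icariin against CIAKI, 16 and 2; none changed sign. Their counts were 14 to 19 and 16 to 20 with 1 library left out, against 19 and 18; the 14 came without control 1. In icariin against control, where 0 were called, the count was 1 with only the 2 groups compared, 2 with DESeq2 and 0 to 2 with 1 library left out; for further list genes it was 1, 5 with DESeq2 and 0 to 2 with 1 library left out. Over all features the 105 calls of that comparison became 52 with no filter on low values, 524 with DESeq2 and 31 to 127 with 1 library left out. The cause was not tested. Fnip2 in icariin against CIAKI, at -0.08 and not called, changed sign without CIAKI 1 (0.0073) or CIAKI 2 (0.0181) and was called without CIAKI 3 (-0.2736, adjusted p = 0.0417).

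Samples with the same number did not deviate together (correlations of -0.03 to 0.08), so the numbers were not taken as pairs. With the replicate number as a block 19, 18 and 0 of the 39 genes were called in the 3 comparisons, and 6678, 6314 and 73 of all features against 6903, 6592 and 105. On recovered reads edgeR called 19, 19 and 0 of the 39 genes and 7028, 6745 and 76 of all features. Each member had at least 121 reads in every library. The part of depth and of the number of samples in the results was not tested. With upper-quartile scaling 11 of the 39 genes rose and 9 fell in CIAKI, and 10 were higher and 10 lower in icariin against CIAKI. The split counts under other scalings and the sums without single markers were chosen after seeing the data.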
